A study of Mus musculus with 8 samples.

Results

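The histone deacetylases (HDACs) of the zinc-dependent kind were followed in the mouse dentate gyrus. Members were chosen by gene symbol and not by any measured value: every array probe annotated to Hdac1, Hdac2, Hdac3, Hdac4, Hdac5, Hdac6, Hdac7, Hdac8, Hdac9 or Hdac11 was taken, which gave 23 probes for 10 genes among 56605 probes for 26894 gene symbols. Hdac10, the other zinc-dependent member, was not part of the selection.

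HDACs remove acetyl groups from lysines of histones and other proteins, and removal from histones is associated with compact chromatin and lower transcription. Class I enzymes (Hdac1, Hdac2, Hdac3 and Hdac8) are mostly nuclear and, Hdac8 aside, work inside large corepressor complexes. Class IIa enzymes (Hdac4, Hdac5, Hdac7 and Hdac9) have little deacetylase activity of their own, bind MEF2 transcription factors and move between nucleus and cytoplasm in response to kinases. Hdac6 (class IIb) is a cytoplasmic enzyme whose substrates include tubulin, and Hdac11 is the only member of class IV. In the adult dentate gyrus, where neural stem cells (NSCs) go on making granule neurons, class I enzymes and Hdac5 are among those linked to stem cell proliferation and neuronal differentiation. Valproic acid and 4-phenylbutyric acid are inhibitors that act mainly on class I. The study gave such an inhibitor to Derlin-1 KO mice, which raises the question of whether HDAC transcripts themselves differed when a Derlin was absent.

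RNA from the dentate gyrus of C57BL/6 males (8 to 9 weeks old) was measured on 8 Agilent arrays, each read in a single colour, with 2 arrays in each of 4 groups. Derlin-1 control and Derlin-2 control mice carried both alleles of Derl1 or of Derl2 flanked by loxP sites, without Cre. The KO mice of each line had the same floxed alleles and, in addition, Cre under the nestin promoter, which is active in neural progenitors and the neurons and glia that descend from them, so microglia and vessels are not expected to lose the gene. Derlins sit in the endoplasmic reticulum membrane and help to clear misfolded proteins. A group of mice with Cre and no floxed allele was not analysed here, so an effect of Cre itself cannot be told apart from that of the deletion. For KO samples the genotype label gives the floxed alleles alone, and groups were therefore read from the titles. The labels do not state that each array came from a separate mouse, and p-values measure only the spread between these samples, which may be technical.

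On each array 38225 to 39771 probes exceeded background clearly. The Derlin-1 arrays shared a slide and the Derlin-2 arrays another, so line and slide cannot be told apart, and within each slide the controls were at positions 1 and 2 and the KO samples at positions 3 and 4, so position and genotype cannot be told apart either. The granule neuron markers (8 of 8 detected) averaged 11.6 to 12.6 log2 units on the 8 arrays. Of the targeted genes, Derl2 was 1.57-fold lower in Derlin-2 KO than in control by its brighter probe (log2 difference -0.65, SE 0.10, limma adjusted p = 0.269) and 2.07-fold lower by its other probe. Derl1 was 1.15-fold lower in Derlin-1 KO by its brighter probe (log2 difference -0.20, SE 0.10) but 1.37-fold higher by a dimmer probe, both with a limma adjusted p of 0.9999, so Derl1 signal does not settle the labels of the Derlin-1 arrays. Whether those probes lie in the deleted exons is not given in the sources used here.

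All 10 HDAC genes were detected in the dentate gyrus. Of their 23 probes, 21 were well above background on all 8 arrays. The exceptions were an Hdac4 probe (A_55_P2720645), above background only on the 2 Derlin-1 KO arrays, and an Hdac9 probe (A_55_P2065074), above background on 1 array and left out of the tests. That Hdac4 probe passed the filter on dim probes through the Derlin-1 KO group alone, so counts of signs, separated arrays and fold sizes below cover the other 21 probes, beside the 35037 probes of the array that were above background on all 8 arrays. Signals below are log2 values after quantile normalization, and each gene is given by its brightest probe unless a probe is named. A probe's brightness depends on its sequence as well as on the transcript, so signals of different HDACs were not ranked against each other. In tissue RNA, fewer cells of a type and less RNA per cell cannot be told apart.

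No HDAC probe passed the test of KO against control in either line. For Derlin-1 KO 0 of 22 probes passed a limma adjusted p of 0.05, where 0% of 39933 probes did, and for Derlin-2 KO 0 of 22 passed, where 0.0352% of 39787 did. At an unadjusted p under 0.05, limma gave 0 of 22 HDAC probes in each line, against 4.69% and 5.49% of all probes. The median log2 difference over the 21 probes above background on all arrays was 0.05 in each line, beside -0.02 and 0.01 over all such probes. Their median absolute log2 difference was 0.12 and 0.09, beside 0.11 in each line over all such probes. A difference of at least 1.5-fold was seen for 1 of 21 probes in the Derlin-1 line (Hdac9 A_55_P2733412), where 2.37% of all such probes had one, and for 1 of 21 in the Derlin-2 line (Hdac11 A_55_P2739481), where 2.57% did. For the mean of both KO effects the count was 0 of 21 (0.714% of all such probes) and for the difference between them 2 of 21 (7.82%), namely Hdac8 and the same Hdac11 probe.

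**Figure D1:**
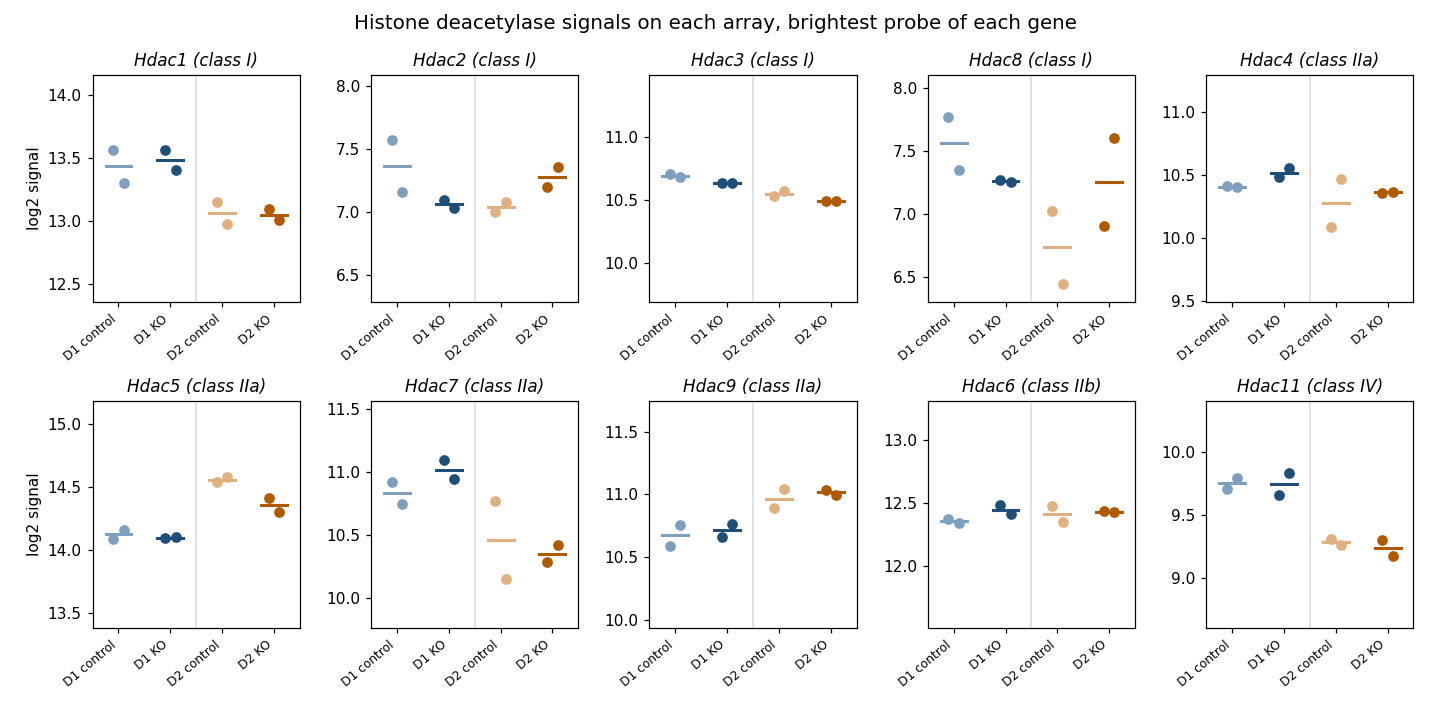
Log2 signal of each HDAC gene (y axis, quantile-normalized, brightest probe, every panel spanning the same range of 1.8 log2 units) on the 8 arrays, grouped on the x axis by line (D1, Derlin-1; D2, Derlin-2) and genotype. Points are arrays and bars are means of 2. The KO and control points of a line lie close together in most panels, whereas Hdac1, Hdac5 and Hdac11 step between the slides.

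Hdac1, the catalytic subunit shared by the Sin3, NuRD and CoREST complexes, had log2 signals of 13.57 and 13.31 in Derlin-1 control and 13.56 and 13.41 in Derlin-1 KO. On the Derlin-2 slide they were 13.15 and 12.98 in control and 13.10 and 13.01 in KO. Control and KO arrays overlapped in both lines. The log2 differences were 0.05 and -0.01 (SE 0.14), with 95% intervals of -0.28 to 0.38 for Derlin-1 KO and -0.34 to 0.32 for Derlin-2 KO. A second Hdac1 probe (A_51_P507380) had both KO arrays above both controls in the Derlin-1 line (log2 difference 0.12) and below them in the Derlin-2 line (-0.07), with an SE of 0.10 for each. The third Hdac1 probe (A_65_P09914) gave -0.09 and -0.02 (SE 0.17), with KO and control arrays overlapping in both lines.

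Hdac2, which pairs with Hdac1 in the same complexes, had differences of opposite sign in the 2 lines, neither past the test. Its log2 signals were 7.57 and 7.16 in Derlin-1 control and 7.09 and 7.03 in Derlin-1 KO. They were 6.996 and 7.08 in Derlin-2 control and 7.20 and 7.36 in Derlin-2 KO. Both KO arrays thus lay below both controls in the Derlin-1 line and above them in the Derlin-2 line, and the highest array of all was the first Derlin-1 control. The log2 difference was -0.30 (SE 0.16, 95% interval -0.68 to 0.08) for Derlin-1 KO and 0.24 (SE 0.16, -0.14 to 0.62) for Derlin-2 KO, with limma adjusted p of 0.9999 and 0.994. The difference between these effects was -0.54 (SE 0.22, 95% interval -1.08 to -0.00), for which the limma adjusted p was 0.852. It was the only HDAC probe of 22 with an unadjusted p under 0.05 in that contrast, where 5.84% of all probes had one and 0.00503% passed after adjustment. Without the first Derlin-1 control array, the Derlin-1 log2 difference of Hdac2 was -0.10 and without the second it was -0.50.

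Hdac3, the enzyme of the NCoR and SMRT corepressors, had replicate arrays close together in every group. Its log2 signals were 10.704 and 10.677 in Derlin-1 control, 10.629 and 10.631 in Derlin-1 KO, 10.526 and 10.565 in Derlin-2 control, and 10.486 and 10.489 in Derlin-2 KO. Both KO arrays were below both controls in each line, and this was the only HDAC gene of which that was true by its brightest probe. The log2 differences were -0.06 in each line (SE 0.09), with 95% intervals of -0.28 to 0.16 and -0.27 to 0.16, so a difference of this size did not exceed the error of the test. A much dimmer Hdac3 probe (A_65_P16459) gave -0.35 (SE 0.22) for Derlin-1 KO and 0.15 for Derlin-2 KO.

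Hdac8, a class I enzyme that acts outside these complexes and is known for deacetylating cohesin, varied most among the brightest probes. Its log2 signals were 7.77 and 7.35 in Derlin-1 control and 7.27 and 7.26 in Derlin-1 KO. The Derlin-2 arrays gave 7.02 and 6.45 in control and 6.91 and 7.60 in KO. The Derlin-1 KO arrays lay just below their controls, and in the Derlin-2 line the groups overlapped while each held arrays more than 0.5 log2 units apart. The log2 difference was -0.30 (SE 0.30, 95% interval -1.03 to 0.43) for Derlin-1 KO and 0.52 (SE 0.30, -0.21 to 1.24) for Derlin-2 KO. Without the first Derlin-1 control array the Derlin-1 log2 difference of Hdac8 was -0.09, and without the second it was -0.51. The second probe (A_51_P481191) gave -0.21 and 0.11 with an SE of 0.11. With either probe the difference between the lines did not pass the test (limma adjusted p = 0.872 and 0.864).

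By class, 6 of the 8 class I probes were lower in Derlin-1 KO, 5 of them with both KO arrays below both controls. Over all probes above background on every array, 56.1% were lower in that line and 17.9% had their KO arrays below both controls. The 5 probes belong to Hdac2, Hdac3 and Hdac8, and probes of a gene share its transcripts, so they are not 5 separate observations. For Hdac1 no probe was separated in that direction, and A_51_P507380 had both KO arrays above both controls. In Derlin-2 KO 4 of the 8 class I probes were higher and 4 lower. Over all probes above background on every array, 52.8% were higher and 47.1% lower there. Both Derlin-2 KO arrays were above both controls for 1 class I probe (17.2% of all such probes) and below them for 2 (13.5%). The median log2 difference of the 4 class I genes was -0.18 for Derlin-1 KO and 0.11 for Derlin-2 KO. The value of the Derlin-1 line rested in part on a single array. The first Derlin-1 control was the highest of its line for 7 of the 8 class I probes and for 38.0% of all probes, and the class median was -0.07 without that array and -0.29 without the other control. The part of that array in the result was not tested further.

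**Figure D2:**
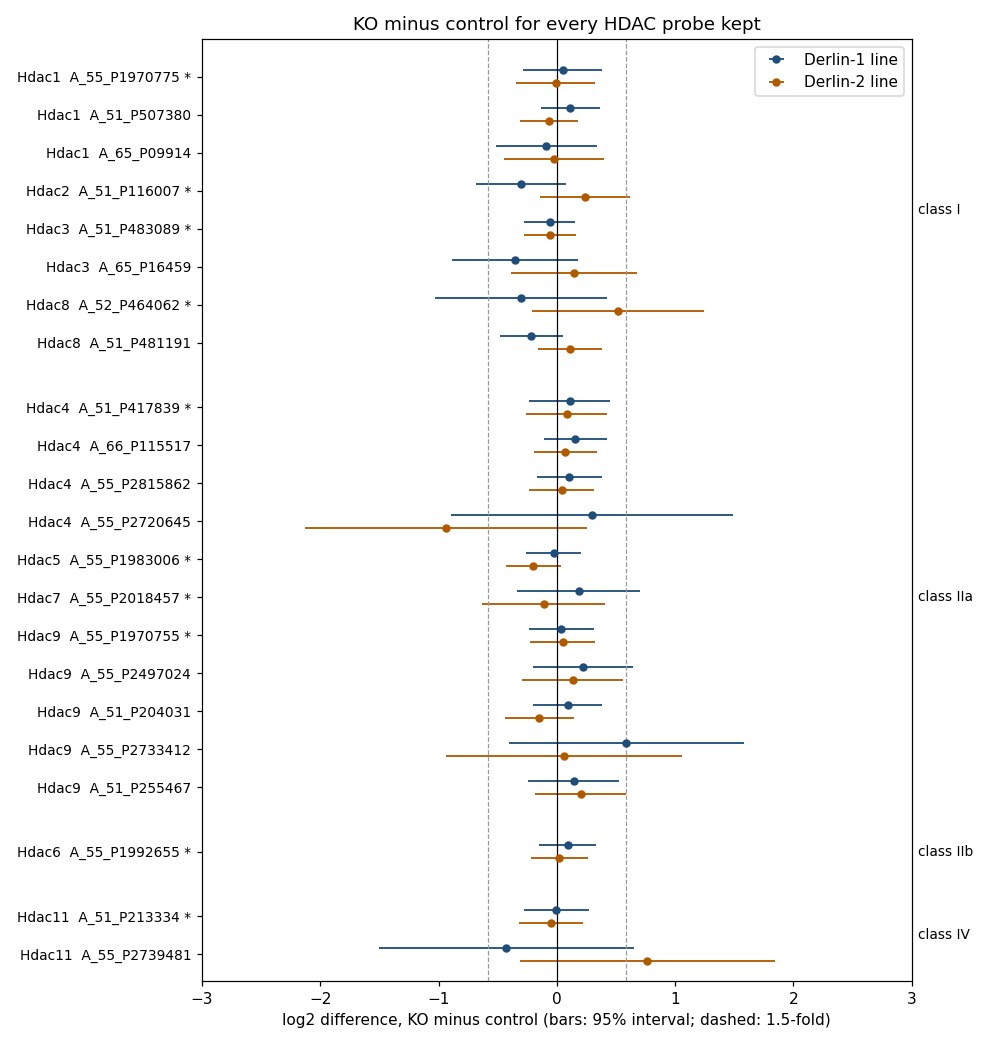
Log2 difference between KO and control (x axis) for the 22 HDAC probes tested (y axis, by class; an asterisk marks the brightest probe of a gene), in the Derlin-1 line (blue) and the Derlin-2 line (orange). Points are limma estimates from 2 arrays against 2, bars are 95% intervals and dashed lines mark 1.5-fold. Every bar crosses 0, and the widest bars belong to the dim probes of Hdac4, Hdac9 and Hdac11.

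Hdac4, a class IIa enzyme abundant in brain, had log2 signals of 10.42 and 10.40 in Derlin-1 control and 10.48 and 10.56 in Derlin-1 KO. They were 10.09 and 10.46 in Derlin-2 control and 10.36 and 10.37 in Derlin-2 KO. Both Derlin-1 KO arrays were above their controls, whereas the Derlin-2 KO arrays fell between theirs. The log2 differences were 0.11 (SE 0.14, 95% interval -0.23 to 0.45) and 0.09 (SE 0.14, -0.26 to 0.43). The other Hdac4 probes above background on all arrays gave 0.16 and 0.11 in the Derlin-1 line, again with both KO arrays above both controls, and 0.07 and 0.04 in the Derlin-2 line. The probe that was above background on the Derlin-1 KO arrays alone had a mean log2 signal of 4.51 there and 4.21 in Derlin-1 control. The log2 difference was 0.30 (SE 0.49, 95% interval -0.89 to 1.49). It is given as a description because the filter kept the probe for that group's signal.

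Hdac5, which is exported from the nucleus when neurons are active, had the smallest adjusted p of any HDAC probe in the Derlin-2 line. Its log2 signals were 14.53 and 14.57 in Derlin-2 control and 14.41 and 14.30 in Derlin-2 KO. In the Derlin-1 line they were 14.09 and 14.16 in control and 14.09 and 14.10 in KO. The Derlin-2 KO arrays were both below their controls, and the Derlin-1 arrays overlapped. The log2 difference was -0.20 (SE 0.10, 95% interval -0.43 to 0.03, limma adjusted p = 0.957), a 1.15-fold lower signal that did not pass the test. It was -0.13 with arrays scaled to their 75th percentile and with the deposited log2 values. In the Derlin-1 line it was -0.03 (95% interval -0.26 to 0.21), a sign that turned to 0.02 when arrays were scaled to their 75th percentile.

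Hdac7, best known from endothelium and thymocytes, had log2 signals of 10.92 and 10.74 in Derlin-1 control and 11.09 and 10.94 in Derlin-1 KO. They were 10.77 and 10.15 in Derlin-2 control and 10.28 and 10.42 in Derlin-2 KO. The Derlin-1 KO arrays were both above their controls, by less than the gap between the Derlin-2 controls. The log2 differences were 0.18 (SE 0.21, 95% interval -0.34 to 0.70) and -0.11 (SE 0.21, -0.63 to 0.41). The endothelial markers measured beside it had a median log2 difference of 0.01 for Derlin-1 KO and -0.01 for Derlin-2 KO.

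Hdac9, which also yields a short form without the catalytic domain, had log2 signals of 10.59 and 10.76 in Derlin-1 control and 10.67 and 10.76 in Derlin-1 KO. They were 10.90 and 11.04 in Derlin-2 control and 11.03 and 10.999 in Derlin-2 KO. Control and KO overlapped in each line, with log2 differences of 0.04 and 0.05 (SE 0.11). The other Hdac9 probes tested ranged from 0.09 to 0.59 for Derlin-1 KO and from -0.15 to 0.20 for Derlin-2 KO. The largest of these, 0.59 (A_55_P2733412), had an SE of 0.41 and a 95% interval of -0.41 to 1.58. It came from a probe whose Derlin-2 control arrays read 8.04 and 6.76.

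**Figure D3:**
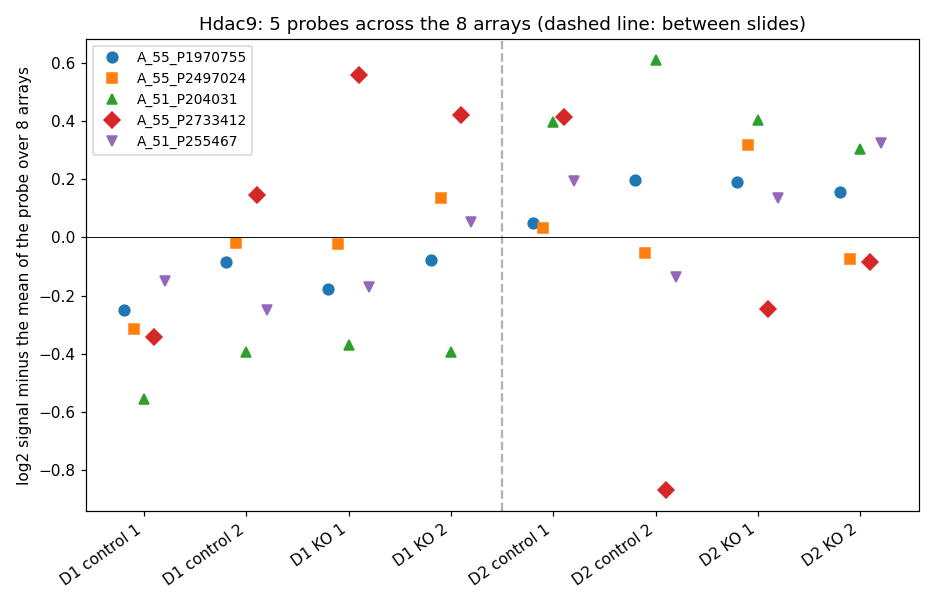
Log2 signal of the 5 Hdac9 probes tested, each as the deviation from its own mean over the 8 arrays (y axis), by array (x axis; D1 and D2 are the Derlin-1 and Derlin-2 lines, and the dashed line separates the slides). Symbols are probes. Probe A_51_P204031 is higher on all 4 arrays of the Derlin-2 line, and probe A_55_P2733412 scatters over more than 1 log2 unit.

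Of the 10 class IIa probes above background on all arrays, 9 were higher and 1 was lower in Derlin-1 KO, and 5 had both KO arrays above both controls. Over all such probes 43.9% were higher in that line and 17.5% had their KO arrays above both controls. All but 1 of these probes belong to Hdac4, Hdac7 and Hdac9 and probes of a gene share its transcripts, so they are not 10 separate observations. By the brightest probe, 3 of 4 class IIa genes were higher, with a median log2 difference of 0.07. In Derlin-2 KO 7 class IIa probes were higher (52.8% of all such probes were) and 3 lower, 0 had both KO arrays above both controls (17.2% of all such probes), and the median of the 4 genes was -0.03. None of the 10 passed the test in either line.

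Hdac6, the tubulin deacetylase, which also binds ubiquitin and is known for its part in carrying misfolded proteins to aggresomes, had log2 signals of 12.37 and 12.34 in Derlin-1 control and 12.48 and 12.41 in Derlin-1 KO. Signals of 12.47 and 12.35 in control and 12.43 and 12.43 in KO were found in the Derlin-2 line. The Derlin-1 KO arrays were above their controls and the Derlin-2 KO arrays fell between theirs. The log2 differences were 0.09 (SE 0.10, 95% interval -0.15 to 0.33) and 0.02 (SE 0.10, -0.22 to 0.26).

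Hdac11, which is known to remove fatty acyl groups as well as acetyl groups, had log2 signals of 9.71 and 9.80 in Derlin-1 control and 9.66 and 9.84 in Derlin-1 KO. They were 9.31 and 9.27 in Derlin-2 control and 9.30 and 9.17 in Derlin-2 KO. Control and KO arrays overlapped in each line. The log2 differences were -0.00 and -0.05 (SE 0.11), with 95% intervals of -0.27 to 0.27 and -0.32 to 0.22. A dim Hdac11 probe (A_55_P2739481) gave -0.43 and 0.76 with an SE of 0.44, and its Derlin-2 control arrays read 5.86 and 4.68.

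The 95% intervals give the range of differences that the data allow for each probe. By the brightest probe, the 95% intervals of 7 of 10 genes lay within 1.5-fold in either direction, and this held for each line. The exceptions were Hdac2, Hdac7 and Hdac8 in each line. Interval widths ran from 0.22 log2 units to either side for Hdac3 to 0.73 for Hdac8. For Hdac2, the interval left room for a KO signal of 0.62 to 1.06 times control for Derlin-1 KO and 0.91 to 1.54 times for Derlin-2 KO. For Hdac8 the ranges were 0.49 to 1.35 and 0.86 to 2.37. Over all HDAC probes tested, the intervals of 14 of 22 lay within 1.5-fold in the Derlin-1 line and 15 of 22 in the Derlin-2 line. Dimmer probes of Hdac3, Hdac4, Hdac9 and Hdac11 reached past it in each line. Hdac3 and Hdac11 are therefore bounded by their brightest probe only. For Hdac4 the probes A_66_P115517 and A_55_P2815862 also lay within it in each line, as did A_51_P204031 and A_51_P255467 for Hdac9.

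Both KO arrays were beyond both controls for 12 of the 21 HDAC probes (57.1%) in the Derlin-1 line, 7 of them higher and 5 lower, where 35.4% of all probes above background on every array were separated. In the Derlin-2 line 4 of 21 (19%) were separated, 1 higher and 3 lower, against 30.8% of all such probes (17.2% higher and 13.5% lower). Several of these probes report the same transcript, and the difference between the lines in this count was not tested. Across the 10 genes, 3 were higher in KO in both lines (Hdac4, Hdac6 and Hdac9), 3 were lower in both (Hdac3, Hdac5 and Hdac11), 2 were higher in Derlin-1 KO and lower in Derlin-2 KO (Hdac1 and Hdac7) and 2 the reverse (Hdac2 and Hdac8). Scaling to the 75th percentile and the deposited values turned Hdac5 and Hdac11 of the Derlin-1 line and Hdac1 of the Derlin-2 line above 0, so the signs of these genes depend on the scaling. For the mean of both KO effects limma called 0 of 22 HDAC probes, where 0.0101% of all probes were called, and 0 had an unadjusted p under 0.05, where 4.38% of all probes did. Hdac5 had a mean effect of -0.11 (log2 difference, SE 0.07, 95% interval -0.28 to 0.05), which shrank to -0.05 after 75th percentile scaling and to -0.06 in the deposited values.

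Levels on the 2 slides were compared as well. All 4 arrays of a line were beyond all 4 of the other for 8 of the 21 HDAC probes (38.1%), a share near the 35.1% of all probes above background on every array, and for 5 of the 10 genes by their brightest probe. Hdac1 averaged 13.46 ± 0.13 (SD, n = 4) on the Derlin-1 arrays and 13.06 ± 0.08 on the Derlin-2 arrays, which is 1.32-fold lower. Hdac11 averaged 9.75 ± 0.08 and 9.26 ± 0.06, which is 1.40-fold lower in the Derlin-2 line. Hdac5 went the other way, with 14.11 ± 0.03 on the Derlin-1 arrays and 14.45 ± 0.12 on the Derlin-2 arrays. Hdac9 was higher in the Derlin-2 line, 1.23-fold by its brightest probe and 1.81-fold by probe A_51_P204031. The latter lies in row 369, among the last rows of the array that an alternative left out. A further 3 Hdac9 probes overlapped between the lines. Hdac3 was 1.105-fold lower in the Derlin-2 line. These levels carry no test, since mouse line, slide and hybridisation cannot be told apart.

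The order of the 4 groups followed the slides for these genes. Hdac3 was highest in Derlin-1 control, followed by Derlin-1 KO, then by Derlin-2 control and lastly by Derlin-2 KO, with no overlap between neighbours. Hdac5 ran from Derlin-2 control through Derlin-2 KO to Derlin-1 control and Derlin-1 KO, and the last pair overlapped. Hdac1, Hdac9 and Hdac11 separated by line alone, since KO and control overlapped on each slide. For Hdac4 the order was Derlin-1 KO, Derlin-1 control, Derlin-2 KO and Derlin-2 control, and the last pair overlapped. For Hdac7 only Derlin-1 KO stood clear of its neighbour, and for Hdac6 every neighbouring pair overlapped. For Hdac2 Derlin-1 control and Derlin-2 KO overlapped at the top and Derlin-1 KO and Derlin-2 control at the bottom. For Hdac8 Derlin-1 control was highest and the other groups overlapped with their neighbours.

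Genes that work with or against the HDACs were examined as 8 lists, with 1 probe per gene, and none of their genes passed the limma test in either line. Counts of signs in these lists stand beside all probes above background on every array. Of those, 43.9% were higher and 56.1% lower in Derlin-1 KO, and 52.8% were higher and 47.1% lower in Derlin-2 KO. The class I enzymes act through scaffolds and readers, so the corepressor complexes were taken first. Of 11 Sin3 complex genes, 3 were higher and 8 lower in Derlin-1 KO (median log2 difference -0.03), and 9 were higher and 2 lower in Derlin-2 KO (0.07). Rbbp7, a histone-binding subunit that Sin3 shares with NuRD, had a log2 difference of -0.16 (SE 0.10) for Derlin-1 KO and 0.12 for Derlin-2 KO. Brms1, a Sin3 subunit, had -0.15 and 0.14 (SE 0.11). Both genes are named because they had the smallest p of the list in a line, so they do not stand for the list. None of these differences passed the test (limma adjusted p from 0.9992 to 0.9999).

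Among 10 NuRD genes 3 were higher and 7 lower in Derlin-1 KO, and 5 were higher and 5 lower in Derlin-2 KO. Chd4, the ATP-dependent remodeller at the core of NuRD, had log2 signals of 14.04 and 14.54 in Derlin-1 control and 13.81 and 13.998 in Derlin-1 KO. On the Derlin-2 slide it read 15.90 and 16.07 in control and 15.74 and 15.68 in KO. Both KO arrays were below both controls in each line, with log2 differences of -0.39 and -0.28 (SE 0.19). For the mean of both effects the log2 difference was -0.33 (SE 0.13, limma adjusted p = 0.9998). Chd4 was the only gene of the 8 lists with an unadjusted limma p under 0.05 there, where 4.38% of all probes had one. Its probe lies in row 371, among the last rows of the array that an alternative left out. Mta2, another NuRD subunit, had -0.21 (SE 0.11) in the Derlin-2 line and -0.00 in the Derlin-1 line.

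The 8 CoREST genes divided into 4 higher and 4 lower in Derlin-1 KO and 3 higher and 5 lower in Derlin-2 KO. The gene with the smallest p was Kdm1a, the histone demethylase of the complex, in the Derlin-1 line (log2 difference -0.09, SE 0.13) and Rcor3, a CoREST scaffold, in the Derlin-2 line (-0.21, SE 0.12). Of the 5 NCoR and SMRT genes, which hold Hdac3, 2 were higher in Derlin-1 KO and 3 in Derlin-2 KO, and the largest departures by p were Tbl1x at 0.11 (SE 0.10) and Gps2 at -0.09 (SE 0.12). The class IIa partners, MEF2 factors and the kinases that send class IIa enzymes out of the nucleus, had 4 of 10 genes higher in Derlin-1 KO and 6 of 10 in Derlin-2 KO. Camk4, a calcium-dependent kinase of neurons, had a log2 difference of 0.27 (SE 0.17) in the Derlin-1 line, and Prkd3, a protein kinase D, had 0.24 (SE 0.12) in the Derlin-2 line.

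**Figure D4:**
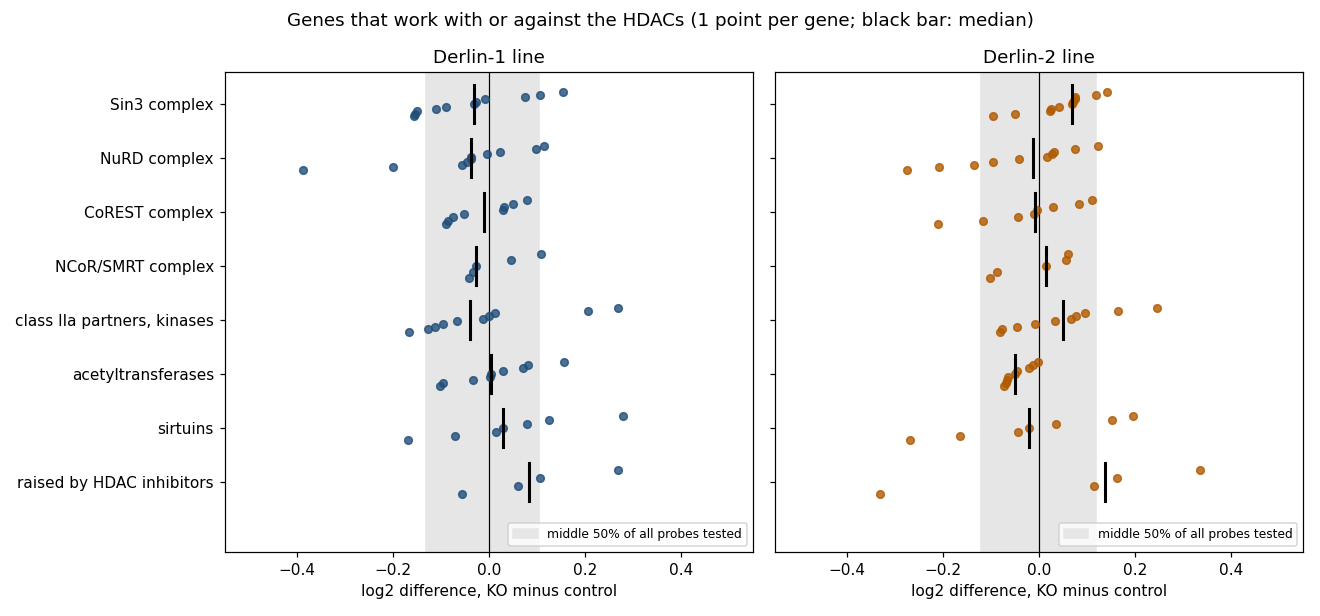
Log2 difference between KO and control (x axis) of each gene in 8 lists of HDAC partners, opposing enzymes and HDAC inhibitor-responsive genes (y axis), in the Derlin-1 line (left) and the Derlin-2 line (right). Points are genes, black bars are list medians and the grey band holds the middle 50% of all probes tested. Most points fall within or near the band, and the 9 acetyltransferases of the Derlin-2 line all lie below 0.

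The acetyltransferases, which add the groups that HDACs remove, were taken next. In the Derlin-2 line 9 of 9 were lower in KO, by a median log2 difference of -0.05, where 47.1% of all probes above background on every array were lower, and in the Derlin-1 line 6 were higher and 3 lower. The departures with the smallest p were Crebbp, a coactivator acetyltransferase, at 0.16 (SE 0.10) in the Derlin-1 line and Kat5 at -0.07 (SE 0.09) in the Derlin-2 line, each smaller than the 95% interval around it. Of 7 sirtuins, the deacetylases that use NAD in place of zinc, 5 were higher in Derlin-1 KO and 3 in Derlin-2 KO. The mitochondrial Sirt4 had a log2 difference of 0.28 (SE 0.15) in the Derlin-1 line and the nuclear Sirt6 had -0.27 (SE 0.12) in the Derlin-2 line, with limma adjusted p of 0.9999 and 0.946.

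Genes known to rise under HDAC inhibitors were read out as well, and 3 of 4 were higher in KO in each line without passing the test. Stat5b is a transcription factor that the study found lower after Derl1 knockdown in cultured hippocampal NSCs, whereas dentate gyrus tissue was measured here. Its log2 signals were 9.83 and 9.80 in Derlin-1 control and 10.002 and 9.84 in Derlin-1 KO. It read 10.09 and 10.20 in Derlin-2 control and 10.40 and 10.11 in Derlin-2 KO. Both Derlin-1 KO arrays were above their controls and the Derlin-2 groups overlapped, with log2 differences of 0.11 (SE 0.13, 95% interval -0.22 to 0.43) and 0.11 (-0.21 to 0.44). Cdkn1a, which encodes the cell cycle inhibitor p21, had 0.27 and -0.33 (SE 0.42), and a Derlin-2 control array read 8.52 where the other read 7.18. Gsn, which encodes the actin-severing protein gelsolin, had 0.33 (SE 0.21) in the Derlin-2 line.

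Markers of the cell types in the dissected tissue were set beside these values. For the counts of signs, 43.9% of all probes above background on every array were higher in Derlin-1 KO and 56.1% lower. In Derlin-2 KO 52.8% were higher and 47.1% lower. Of 8 newborn neuron and progenitor markers listed, 7 were kept and Neurod4 was too dim. Of the class I genes in the Derlin-2 line, Hdac2 and Hdac8 were higher in KO, and Hdac1 and Hdac3 were lower. In that line 7 of the 7 newborn neuron and progenitor markers were higher, by a median log2 difference of 0.38. None passed the test, and their mean log2 signal was 7.90 and 8.12 in control and 8.49 and 8.49 in KO. In the Derlin-1 line, where 3 of 4 class I genes were lower and none passed the test, that median was -0.02. There the granule neuron markers were lower in 6 of 8 (median -0.18) and the microglial markers in 6 of 6 (median -0.13). The granule neuron mean was 12.59 and 12.13 in Derlin-1 control and 12.27 and 11.93 in KO, so the groups overlapped. The microglial mean was 11.43 and 11.35 in control and 11.28 and 11.22 in KO. Interneuron markers were higher in 5 of 7 in Derlin-1 KO and lower in 6 of 7 in Derlin-2 KO. Pyramidal neuron markers were higher in 4 of 8 and 5 of 8 in the respective lines, astrocyte markers in 2 of 6 and 3 of 6, oligodendrocyte markers in 1 of 7 and 5 of 7, and endothelial markers in 3 of 5 and 2 of 5. Choroid plexus markers, from tissue next to the hippocampus, were higher in 4 of 5 in Derlin-1 KO (median 0.39), with a mean log2 signal of 6.95 and 7.48 in control and 7.39 and 7.82 in KO. In the Derlin-2 line 3 of 5 were higher (median 0.11), with 7.84 and 8.69 in control and 8.66 and 8.09 in KO. The part of cell composition in the HDAC values was not tested.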

How the data were processed

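Labelled RNA of 8 dentate gyrus samples was hybridised to Agilent SurePrint mouse arrays, and groups were taken from the sample titles. Per the file headers, the scanner files deposited give spot intensity after background subtraction and spatial detrending by Agilent Feature Extraction (version 10.7.1.1, as in the submitters' processing notes), with flags for background and outliers. The authors' deposited tables hold log2 values, quantile-normalized and centred on the probe median of the authors' whole experiment, some arrays of which were not analysed here. These tables supplied the gene symbols and an alternative set of values. Their columns of fold changes between groups were not used.

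Control spots and outlier-flagged spots were left out. Signals were floored at 1, log2-transformed, quantile-normalized over the 8 arrays and averaged per probe. Probes well above background on both arrays of any group were kept, leaving 39937 of 56605 probes (22 of 23 HDAC probes) for 19893 symbols. The brightest kept probe over the 8 arrays stands for a gene. No HDAC spot carried an outlier flag (0 values). A model of 4 group means was fitted with limma (version 3.58.1, R version 4.3.3), with 4 residual and 2.08 prior degrees of freedom. KO was contrasted with control in each line, and these contrasts were averaged and subtracted. Tests were two-sided, with Benjamini-Hochberg adjustment over all probes tested, a threshold of 0.05 and 95% intervals from the moderated spread. An exact test of 2 against 2 arrays cannot give a p below 0.333. The fit was tested on simulated data. The number of arrays limits the precision.

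The HDAC members, the 8 partner lists and the 9 marker lists were chosen with earlier results of these data known. The genes named were the 10 members with every probe, Derl1 and Derl2, Stat5b and Cdkn1a, and from each partner list the gene with the smallest p in each line. The markers were of granule neurons, pyramidal neurons, interneurons, newborn neurons and progenitors, astrocytes, microglia, oligodendrocytes, endothelium and choroid plexus. The mean effect of Chd4 was singled out after its value was seen, and the restriction of sign and fold counts to probes above background on all arrays was likewise set afterwards. Alternatives were scaling to the 75th percentile, normexp background correction on the median spot signal (the mean signal was not used here), a floor of 16, other filters on dim probes, outlier spots kept, the last rows of the arrays left out (rows 337 to 384), each line alone, the replicate number as a block, the deposited log2 values, limma-trend, the mean of a gene's probes, other call rules and leaving out each array. The array was designed on an earlier mouse assembly for which no genome was at hand, so no positions or sequences are given.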

Additional observations from a re-analysis of the deposited data

How the results depend on the processing

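No HDAC probe and no gene of the partner lists passed the threshold under any alternative that kept the adjusted p, and the lowest limma adjusted p of an HDAC gene in a line was 0.418. With the replicate number as a block limma called 0 HDAC probes in each contrast, and all probes called went from 14 to 0 in the Derlin-2 line, from 4 to 0 for the mean of both and from 2 to 0 for the difference. The numbers only name the samples: deviations of same-numbered arrays correlated at 0.266 for Derlin-1 KO and -0.0981 for Derlin-2 KO.

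In the Derlin-1 line, 111 of 116 values of the 10 genes kept their sign when no array was left out, and in the Derlin-2 line also 111 of 116. A floor of 16, the filters on dim probes, the omitted last rows, the block, each line alone and limma-trend left the log2 differences unchanged. The values from these settings could not change sign, so the counts do not measure how stable the signs are. All changes of sign were of values that had not passed the test, and their causes were not tested. Scaling to the 75th percentile turned Hdac5 (0.023) and Hdac11 (0.014) of the Derlin-1 line and Hdac1 (0.023) of the Derlin-2 line above 0, as did the deposited log2 values (0.012, 0.0031 and 0.024). Keeping outlier spots gave 0.0050 for Hdac11 in the Derlin-1 line. The mean of all probes of a gene, which brings in the dim probes, gave 0.044 for Hdac3, -0.19 for Hdac4 and 0.36 for Hdac11 in the Derlin-2 line.

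Leaving out 1 array at a time gave log2 differences in the Derlin-1 line from -0.083 to 0.18 for Hdac1, -0.061 to 0.0092 for Hdac5, -0.043 to 0.12 for Hdac9 and -0.092 to 0.085 for Hdac11. In the Derlin-2 line the ranges were -0.097 to 0.075 for Hdac1, -0.10 to 0.27 for Hdac4, -0.042 to 0.085 for Hdac6, -0.42 to 0.20 for Hdac7, -0.024 to 0.12 for Hdac9 and -0.11 to 0.016 for Hdac11. The Hdac7 range comes from the Derlin-2 controls, with 0.20 without the first and -0.42 without the second, and Hdac8 went from 0.17 without the second Derlin-2 KO array to 0.87 without the first. The difference between the lines stayed negative for Hdac2 (-0.75 to -0.33) and Hdac8 (-1.17 to -0.47).

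All probes called by limma numbered 0 to 1 in the Derlin-1 line, 3 to 50 in the Derlin-2 line, 0 to 19 for the mean of both and 0 to 18 for the difference when 1 array was left out. For the Derlin-2 line, the mean and the difference they numbered 2, 0 and 0 with normexp, 9, 0 and 3 with a floor of 16, 29, 7 and 0 with no filter on dim probes, 2, 0 and 0 with probes above background on all arrays, 4, 0 and 0 without the last rows and 2, 0 and 0 with limma-trend. With the deposited values 2 were called for the mean of both, and with the 4 arrays of the line alone 0 in the Derlin-2 line. At an unadjusted p under 0.05, all probes numbered 1872, 2186, 1743 and 2322 in the 4 contrasts, HDAC probes 0, 0, 0 and 1 (Hdac2) and partner genes 0, 0, 1 (Chd4) and 0. At 1.5-fold or more, all probes numbered 1829, 2246, 883 and 4721, HDAC probes 1, 2, 0 and 3 (with the Hdac4 probe that was below background on the Derlin-2 arrays among the 2 and the 3), and partner genes 0, 0, 0 and 1.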
